A study of Mus musculus with 6 samples.

Results

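The MYC, MAX and MXD network is a family of transcription factors that share a basic helix-loop-helix leucine zipper, and 10 of its genes were followed here out of 27179 genes in the count table. The members were listed by name, as *Myc*, *Mycn*, *Max*, *Mxd1*, *Mxd3*, *Mxd4*, *Mxi1*, *Mnt*, *Mga* and *Mlx*, and were matched through the Entrez gene identifiers of the table. All 10 were found. In 9 of them expression passed the limit for testing (a mean log2 CPM of at least 0, where CPM is the count of a gene relative to the scaled total of its library), and *Mycn* did not.

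The libraries came from germinal center (GC) B cells, the B cells that proliferate and mutate their antigen receptor in the spleen after immunization. WT mice and mice lacking the interleukin-21 receptor (Il21r-/-), both on the C57BL/6 background, received the hapten-protein antigen NP-KLH in alum, and GC B cells were taken 7, 10 and 14 days later. The sort kept NP-binding IgG1+ B220+ cells without CD138, IgM, IgD, Gr1 or CD38. Each genotype had 1 library per day, giving 3 WT and 3 Il21r-/- libraries of 100-base single-end reads. GEO's design text assigns an independent mouse to each library, whereas the methods give a larger number of mice per genotype, so whether a library holds 1 animal or a pool is not certain. The methods also state that the mice came from more than 1 immunization. Which immunization each library came from is not given in the sources used here, so immunization and day cannot be told apart. According to the methods, the mice of every experiment but the thymidine analog time course were irradiated Ly5.1 hosts given WT or Il21r-/- bone marrow, in which cells outside the blood lineages keep the host genotype. Animals were matched for age and sex and both sexes were used in the study, but neither is given per library in the sources used here.

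MYC binds DNA only as a dimer with MAX and activates genes for growth, ribosome assembly, metabolism and cell division, often at the E-box sequence CACGTG. The MXD proteins (MXD1, MXI1, MXD3 and MXD4), MNT and MGA compete for the same partner and the same sites, and recruit repressing complexes there, so the balance between MYC and these antagonists sets the output of shared targets. In the GC, MYC protein is found in a small share of light zone cells selected for re-entry into the dark zone, whereas most GC B cells lack it, and a bulk library averages over all of them.

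The libraries held between 21353438 and 27435124 counts. *Il21r* was higher in every WT library, at 246.6 to 345.8 CPM, than in the Il21r-/- libraries, at 105.8 to 127.6 CPM (log2 fold change 1.29, SE 0.13, edgeR quasi-likelihood adjusted p = 0.00137). The 9 GC B cell markers summed to between 7391 and 9941 CPM, and the 5 T cell markers to at most 1.04 CPM. The Il21r-/- library of day 10 carried much weight in the test across all genes, which called 651 genes with it and 2093 without it.

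The upstream sequence of *Mxd4* is shown because this gene was the member called between the genotypes. RefSeq promoters (GRCm38.p6) were found for 9 of the 10 members, 11 promoters in all, and none was listed for *Myc*. The 250 bases before each start site were searched for CACGTG, which reads the same on both strands. It stood in 3 of the 11 promoters, against 6.02% of all 32851 promoters. By gene, this was 3 of the 9 members with a promoter, against 6.86% of all 27025 genes with 1 or more. The positions were -219 of *Mxd4*, -123 of *Mnt* and -40 of *Mlx*. The *Mxd4* window on the minus strand, at chr5:34187711-34187960, has the E-box in capitals.
*Mxd4* upstream: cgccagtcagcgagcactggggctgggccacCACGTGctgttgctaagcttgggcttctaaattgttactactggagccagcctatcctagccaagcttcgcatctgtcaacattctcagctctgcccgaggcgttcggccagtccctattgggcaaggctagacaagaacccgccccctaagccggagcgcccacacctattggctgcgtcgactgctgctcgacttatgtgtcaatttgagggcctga
The motif TTCCNGGAA, the site form of STAT factors that act below the interleukin-21 receptor, was found in 0 of the 11 member promoters and in 0.913% of all promoters, also read on both strands. A match describes letters in a window and says nothing of binding.

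Per kilobase of exon, the partners *Max* and *Mlx* and the antagonists *Mxd3* and *Mxd4* stood above *Myc* itself, and the other members below it. *Max* had the highest level, with a median over the 6 libraries of 72.8 CPM per kilobase (range 62.3 to 79.0), followed by *Mxd3* at 57.1 (43.7 to 65.6). Their ranges overlapped, so the order of this pair is not set. *Mxd4* at 34.9 CPM per kilobase (20.3 to 42.1) and *Mlx* at 32.4 (30.1 to 37.5) came next and overlapped each other. *Myc* lay in the middle of the order at 13.0 CPM per kilobase (10.3 to 16.5), clear of its neighbors on both sides, with *Mnt* at 7.65 (5.84 to 8.83) and *Mga* at 1.91 (1.68 to 2.46). *Mxi1* and *Mxd1* were the lowest of the members tested, at medians of 0.731 and 0.651 CPM per kilobase, and their ranges overlapped. *Mycn* had a single count in a single library.

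**Figure D1:**
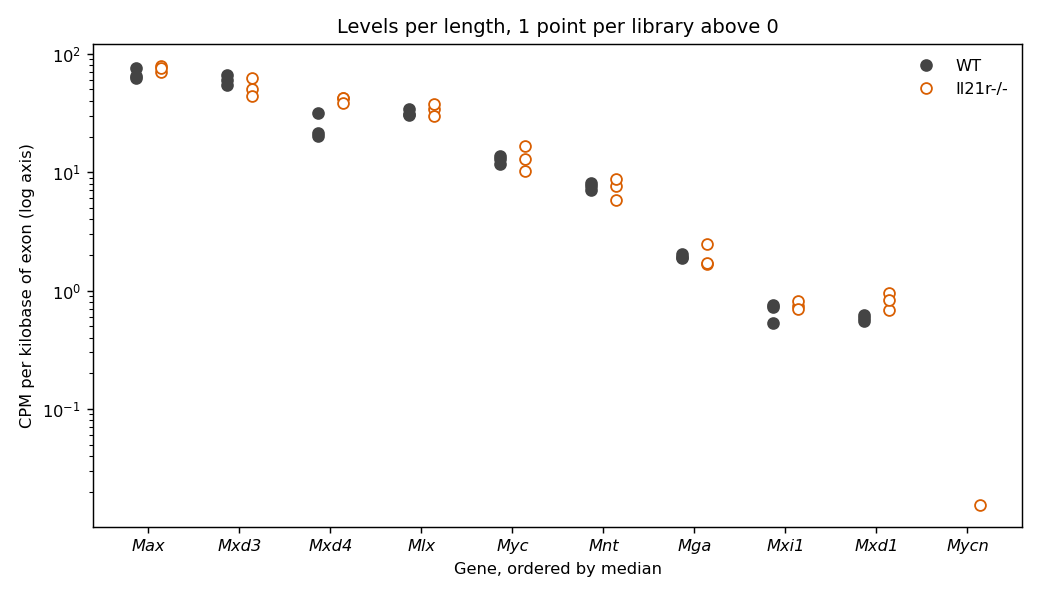
Level of each member in each library, as CPM per kilobase of exon on a log axis, with the genes ordered by their median. Filled points are the 3 WT and open points the 3 Il21r-/- libraries. Libraries at 0 are not drawn, which for *Mycn* leaves 1 point. *Max* and *Mxd3* lead, and the WT points of *Mxd4* lie below its Il21r-/- points.

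*Myc* (Entrez 17869, chr15:61985341-61990361, plus strand, RefSeq coordinates in GRCm38.p6, the mm10 build, here and below) encodes the growth-promoting factor for which the network is named. In WT it stood at 27.99, 31.2 and 32.6 CPM on days 7, 10 and 14, and in Il21r-/- at 24.7, 39.6 and 31.1 CPM. The highest and the lowest of the 6 libraries were both Il21r-/-, and the WT values lay between them. The WT mean was 30.6 ± 2.38 CPM and the Il21r-/- mean 31.8 ± 7.47 CPM (SD, n = 3). Over the 3 days the log2 fold change of WT over Il21r-/-, positive where WT is higher, was -0.05 (SE 0.16, edgeR quasi-likelihood adjusted p = 0.885), a difference smaller than its error. By day it was 0.18 (SE 0.31) on day 7, -0.34 (SE 0.30) on day 10 and 0.07 (SE 0.31) on day 14, with edgeR likelihood ratio adjusted p-values of 0.999, 0.839 and 0.970. Without the Il21r-/- library of day 10 the 3-day value became 0.14 (adjusted p = 0.394), so its sign rests on that library.

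*Mycn* (Entrez 18109, chr12:12936093-12941836, minus strand), the paralog best known from neural and early lymphoid progenitors, had 0 counts in 5 libraries and 1 count in the Il21r-/- library of day 14. A count of 0 allows up to 3 counts, which corresponds to 0.110 to 0.140 CPM over the libraries. This limit covers counting error only. *Mycn* was therefore not detectable at this depth beyond that single read, and no genotype comparison was made for it.

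*Max* (Entrez 17187, chr12:76937269-76962323, minus strand), the partner that MYC, the MXD proteins, MNT and MGA all need, stood at 152.6, 124.8 and 129.0 CPM in WT and at 158.3, 140.8 and 151.2 CPM in Il21r-/- on days 7, 10 and 14. Within each day the Il21r-/- library was higher, but the ranges of the genotypes overlapped. The 3-day log2 fold change was -0.15 (SE 0.10, edgeR quasi-likelihood adjusted p = 0.450).

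**Figure D2:**
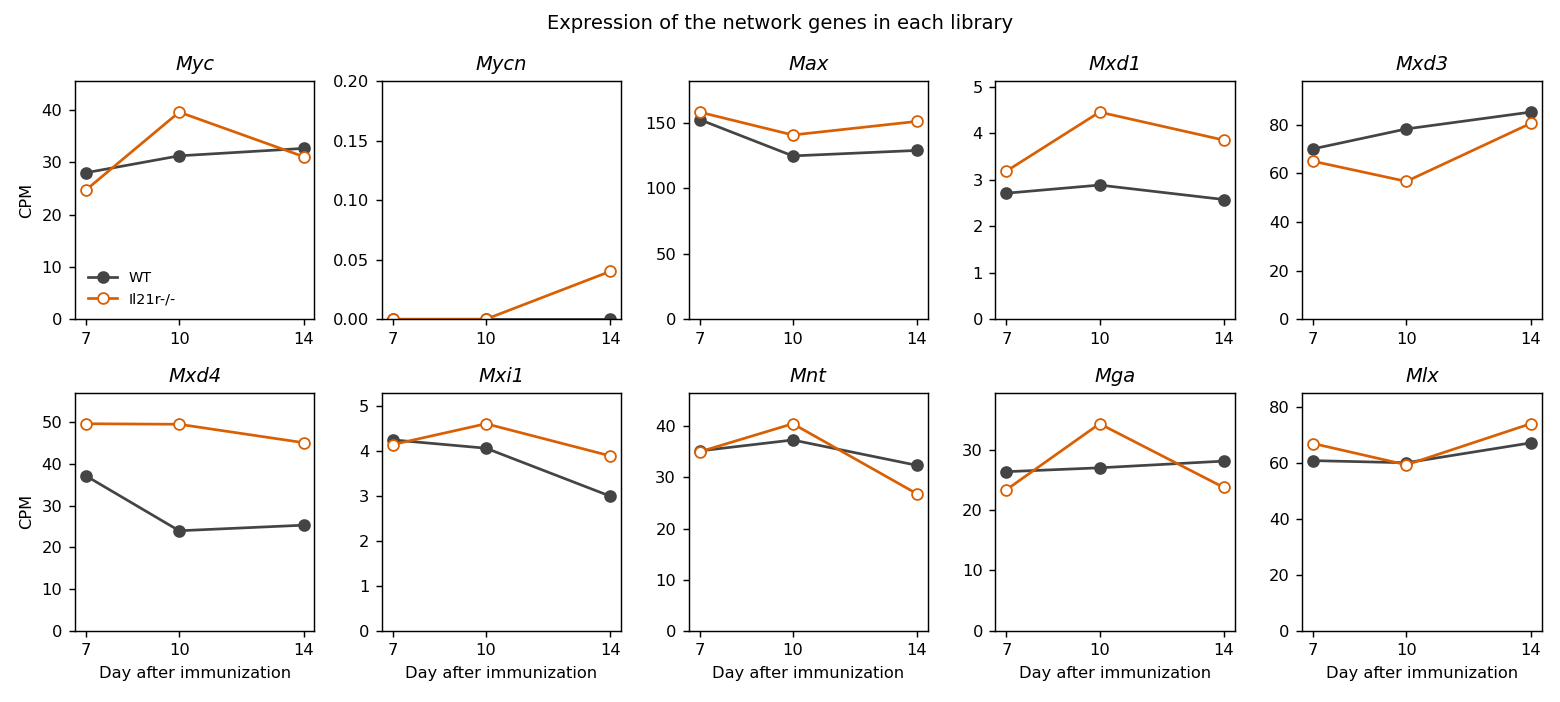
CPM of each of the 10 members (y axis, starting at 0, its scale set per gene) on days 7, 10 and 14 after immunization (x axis). Each point is 1 library, filled for WT and open for Il21r-/-, and lines join the libraries of a genotype. *Mxd4* and *Mxd1* are lower in every WT library than in any Il21r-/- library, and several genes, *Myc* and *Mga* among them, peak in the Il21r-/- library of day 10.

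*Mxd4* (Entrez 17122, chr5:34176580-34187710, minus strand), an MXD antagonist associated with cells that leave the cycle or differentiate, was the member with a genotype difference past the threshold. In WT it stood at 37.2, 24.0 and 25.3 CPM on days 7, 10 and 14, and in Il21r-/- at 49.7, 49.5 and 45.1 CPM. The Il21r-/- libraries lay close together and all above the WT libraries, and the WT libraries of days 10 and 14 lay below that of day 7. The WT mean was 28.8 ± 7.24 CPM against 48.1 ± 2.58 CPM in Il21r-/- (SD, n = 3), a log2 fold change of -0.75 (SE 0.14, edgeR quasi-likelihood adjusted p = 0.0180). It was thus the 1 of 9 members tested that passed over the 3 days, in a comparison that called 5.92% of all genes tested, 4.52% as lower and 1.40% as higher in WT.

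By day, the *Mxd4* difference passed on day 10. Its log2 fold change was -0.42 (SE 0.27, edgeR likelihood ratio adjusted p = 0.999) on day 7, -1.05 (SE 0.27, adjusted p = 0.00826) on day 10 and -0.83 (SE 0.28, adjusted p = 0.0707) on day 14. A growth of the difference with time was not shown, since the interaction of genotype with a linear day term came to -0.38 from day 7 to day 14 (SE 0.37, edgeR quasi-likelihood adjusted p = 1). Day 10 called 3.10% of all genes (2.60% as lower in WT), day 7 1.07% and day 14 3.28%, and no other member passed on any day, by this test or by DESeq2.

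The 3-day call of *Mxd4* depended on single libraries. Its adjusted p rose to 0.0550 without the WT library of day 10, to 0.159 without the WT library of day 14 and to 0.0936 without the Il21r-/- library of day 14, at log2 fold changes of -0.64, -0.76 and -0.67, each still lower in WT. Over 13 alternative settings the log2 fold change ran from -0.94 to -0.64 and the adjusted p from 9.17e-06 to 0.159. *Mxd4* shares 514 of the 8483 exon bases of all its GENCODE transcripts (6.06%) with the antisense transcript *Gm42846*. The counts were made over a RefSeq length of 1179 bases, and how many of those are shared was not determined. Whether counting used the strand is not given in the sources used here.

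Markers of GC zones and of other B cells moved with genotype alongside *Mxd4*. The 8 light zone markers summed to 864.5 to 1141 CPM in WT and 1480 to 1708 CPM in Il21r-/-, with 3 of 8 (*Cd83*, *Cd40* and *Cd69*) called as lower in WT. The quasi-likelihood test, used for the calls here, called 4.52% of all genes as lower and 1.40% as higher in WT. The 5 markers of naive or memory B cells summed to 172.0 to 439.3 CPM in WT and 546.7 to 890.2 CPM in Il21r-/-, with 3 of 5 called as lower in WT, while the 8 dark zone markers summed to 2349 to 2555 CPM in WT and 2059 to 2138 CPM in Il21r-/- with 0 of 8 called by the quasi-likelihood test (3 at an unadjusted p under 0.05, 2 called by DESeq2). With the day as a block, 5 light zone markers passed as lower and 3 dark zone markers as higher in WT. That fit called 1492 of 11005 genes as lower and 9.33% of all genes as higher in WT. None of these lists had a marker at 0. The 5 myeloid markers summed to 8.42 to 13.1 CPM in WT and 12 to 19.3 CPM in Il21r-/-, with 1 of 4 tested called as lower in WT. The 5 plasma cell markers summed to 2523 to 2739 CPM in WT and 2774 to 3621 CPM in Il21r-/-, most of it *Jchain*, and 2 of 4 tested were called in opposite directions, *Prdm1* as higher in WT (log2 fold change 1.64, edgeR quasi-likelihood adjusted p = 0.0216) and *Xbp1* as lower (-0.39, adjusted p = 0.0396). Their part in the *Mxd4* difference was not tested, and in bulk RNA more cells with the transcript and more transcript per cell cannot be told apart.

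*Mxd1* (Entrez 17119, chr6:86647044-86669234, minus strand), a founding MXD gene induced in maturing myeloid and lymphoid cells, moved in the same direction at a far lower level. It stood at 2.71, 2.89 and 2.58 CPM in WT and at 3.19, 4.46 and 3.85 CPM in Il21r-/- on days 7, 10 and 14, from 55 to 117 counts per library. The ranges of the genotypes did not overlap. The log2 fold change was -0.49 (SE 0.20) and did not pass after correction (edgeR quasi-likelihood adjusted p = 0.210). *Mxd1* and *Mxd4* were the 2 of 9 members with every WT library below every Il21r-/- library, a pattern seen in 10.0% of all genes tested, and 0 of 9 had the opposite pattern, seen in 8.33%.

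*Mxd3* (Entrez 17121, chr13:55325170-55329900, minus strand) differs from the other MXD genes in being expressed in dividing cells, around S phase. It stood at 70.1, 78.3 and 85.3 CPM in WT and at 65.0, 56.7 and 80.6 CPM in Il21r-/- on days 7, 10 and 14. The WT library was the higher on each day, yet the ranges overlapped. The log2 fold change over 3 days was 0.21 (SE 0.12, edgeR quasi-likelihood adjusted p = 0.342), and the day 10 value was 0.47 (edgeR likelihood ratio adjusted p = 0.454). Of the exon bases of all its GENCODE transcripts, 4.43% are shared with *Prelid1*, and the shared part of the counted length was not determined.

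Since *Mxd3* and *Mxd4* made up most of the MXD transcripts, the 4 MXD genes were also compared per kilobase as a composition, with no test. *Mxd4* was 36.3%, 24.8% and 24.4% of the MXD sum in WT on days 7, 10 and 14, and 45.0%, 48.0% and 37.6% in Il21r-/-. The ratio of *Mxd3* to *Mxd4* was 1.71, 2.97 and 3.05 in WT against 1.19, 1.04 and 1.62 in Il21r-/-. The *Mxd4* share did not overlap between the genotypes, but narrowly, at 36.3% in WT of day 7 against 37.6% in Il21r-/- of day 14. The same held for the ratio, at 1.71 against 1.62. Both hold the *Mxd4* values called above and are no separate result. Among all genes tested, 10.0% had every WT library lower and 8.33% every WT library higher. The ranges of the MXD sum overlapped, at 86.8, 82.0 and 88.2 CPM per kilobase in WT and 93.6, 87.5 and 101.8 in Il21r-/- on days 7, 10 and 14. On each of the 3 days the sum was higher in the Il21r-/- library. Set against *Myc*, the sum of the 6 antagonists (the MXD genes, *Mnt* and *Mga*) was 8.26, 7.08 and 7.15 times the *Myc* level in WT and 9.99, 5.99 and 8.45 times in Il21r-/-, so the Il21r-/- libraries held both the highest and the lowest ratio.

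The other antagonists showed differences within their errors. *Mxi1* (Entrez 17859, chr19:53310128-53373293, plus strand), an MXD protein, ranged from 2.997 to 4.25 CPM in WT and from 3.89 to 4.61 CPM in Il21r-/- (3-day log2 fold change -0.17, SE 0.18). *Mnt* (Entrez 17428, chr11:74830806-74845725, plus strand), the broadly expressed antagonist, ranged from 32.4 to 37.3 CPM in WT and from 26.8 to 40.5 CPM in Il21r-/- (0.04, SE 0.14). *Mga* (Entrez 29808, chr2:119872503-119970129, plus strand), the MAX partner that scaffolds a variant Polycomb complex, ranged from 26.4 to 28.1 CPM in WT and from 23.4 to 34.3 CPM in Il21r-/- (0.00, SE 0.16). For these 3 genes the WT range overlapped the Il21r-/- range, and the edgeR quasi-likelihood adjusted p-values were 0.649, 0.896 and 0.9997.

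*Mlx* (Entrez 21428, chr11:101086707-101092207, plus strand), the MAX-like partner of the glucose-sensing MLXIP and MLXIPL proteins and of some MXD proteins and MNT, ranged from 60.2 to 67.3 CPM in WT and from 59.4 to 74.2 CPM in Il21r-/-. Its 3-day log2 fold change was -0.09 (SE 0.11, edgeR quasi-likelihood adjusted p = 0.681). Of the exon bases of all its GENCODE transcripts, 19.3% are shared with a neighbor, *Psmc3ip*, the largest share among the members on that basis. The shared part of the counted length was not determined.

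**Figure D3:**
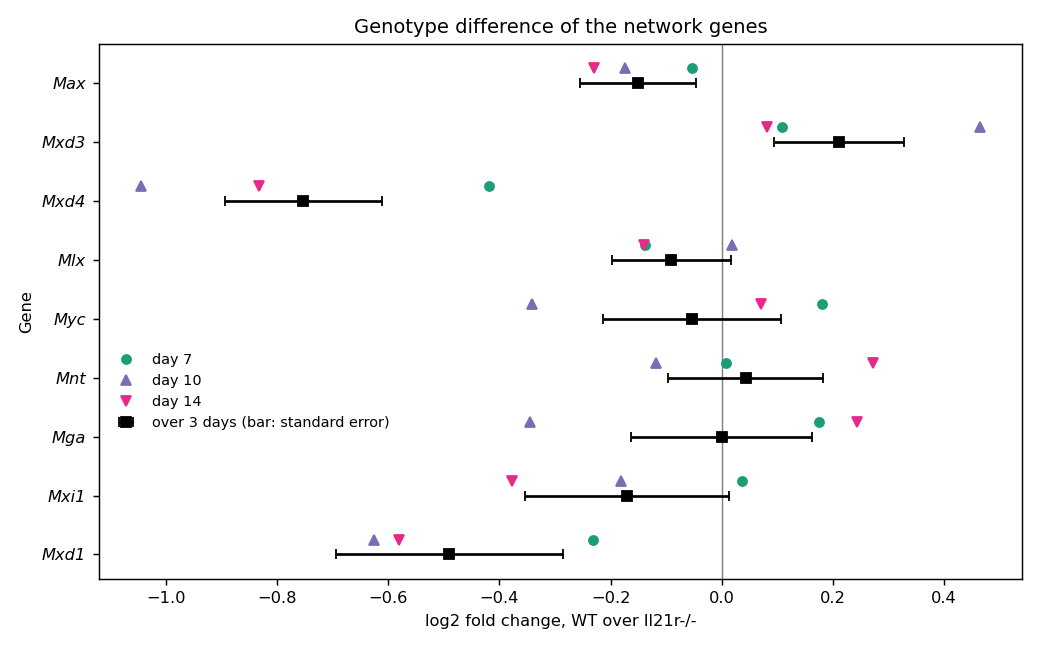
log2 fold change of WT over Il21r-/- (x axis) for the 9 members tested (y axis, ordered by level). Black squares are the 3-day values with their standard errors, and the small colored symbols are the values of days 7, 10 and 14. *Mxd4* lies farthest from 0, at -0.75, and *Mxd1* next at -0.49, while *Myc*, *Mnt*, *Mga*, *Mxi1* and *Mlx* have error bars that cross 0.

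As a group, the members had a median 3-day log2 fold change of -0.09, against -0.01 over all genes tested, with 2 of 9 above 0 and 7 of 9 below. Over time, no member passed. The linear day trend called 0 of 9 members by the edgeR quasi-likelihood test and by DESeq2, with 0 at an unadjusted p under 0.05, in a comparison that called 4.43% of all genes. *Mxd3* came closest, with a log2 rise of 0.31 from day 7 to day 14 (SE 0.14, adjusted p = 0.221), and *Myc* had 0.24 (SE 0.20, adjusted p = 0.506). The interaction of genotype with day called 0 genes by either tool, 118 of 11005 genes having an unadjusted p under 0.05 and 0 of the 9 members.

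Likeness between genes was described by Pearson's r of log2 CPM over the 6 libraries, which share depth, day and genotype. The tested genes most like *Myc* were *Taok2* (r = 0.989), *Krba1* (r = 0.982) and *Nkiras1* (r = 0.980), and those most like *Mxd4* were *Camk2a* (r = 0.996), *Coq8a* (r = 0.993) and *Fam169b* (r = 0.992). Among the members, *Myc* was most like *Mga* (r = 0.870), both peaking in the Il21r-/- library of day 10, and *Mxd4* was most like *Max* (r = 0.844). *Myc* and *Mxd4* had r = -0.07.

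Beyond the members, other genes of the network (*Mycl*, *Mlxip*, *Tfap4*, *Usf1* and *Usf2*, and the zinc finger gene *Zbtb17*) did not pass in either direction over the 3 days, 0 of 6 tested by the quasi-likelihood test, by DESeq2 and at an unadjusted p under 0.05. *Mycl*, the third MYC paralog, stood at 1.25, 1.098 and 0.749 CPM in WT and at 1.31, 0.8001 and 0.562 CPM in Il21r-/- on days 7, 10 and 14. Its level was lowest on day 14 in both genotypes, with a day trend of -0.97 (SE 0.34, edgeR quasi-likelihood adjusted p = 0.133). *Tfap4*, a MYC target that sustains MYC-driven division in lymphocytes, stood at 4.25, 7.03 and 6.28 CPM in WT and at 2.92, 5.33 and 5.90 CPM in Il21r-/-, with a 3-day log2 fold change of 0.34 (adjusted p = 0.430). *Mlxip*, which pairs with MLX, had a log2 fold change of -0.03 and *Zbtb17*, which encodes the MYC partner MIZ1 through which MYC represses genes, one of 0.00, while *Mlxipl* had 1 to 4 counts per library and was not tested.

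The factors that act with the members had small differences between the genotypes. Of 14 MYC coactivators tested (among them the RUVBL helicases), 0 passed over the 3 days by the quasi-likelihood test, with 12 above 0 and a median log2 fold change of 0.15. Of 13 MXD and MNT corepressors (the SIN3 and histone deacetylase complex), 0 passed, with 12 above 0 and a median of 0.09, and of 12 genes of the MGA complex 0 passed, with 11 above 0 and a median of 0.10. At an unadjusted p under 0.05 the lists had 3, 0 and 2 genes, where 21.4% of all genes did, and DESeq2 called 1, 0 and 1, where it called 8.64% of all genes. With the day as a block, *Ccnt1*, *Ruvbl1* and *Ruvbl2* of the coactivators and *Tfdp1* of the MGA complex passed, all higher in WT as were 9.33% of all genes in that fit, and 0 corepressors did.

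Among 12 genes of MYC protein turnover, 2 passed over the 3 days, both lower in WT, a call made for 4.52% of all genes tested. *Fbxw7*, the F-box protein that marks phosphorylated MYC and several other proteins for degradation, stood at 18.9, 24.7 and 27.4 CPM in WT and at 30.5, 55.6 and 42.2 CPM in Il21r-/- on days 7, 10 and 14. All WT libraries lay below all Il21r-/- libraries, with a log2 fold change of -0.86 (SE 0.19, edgeR quasi-likelihood adjusted p = 0.0328). *Fbxo32*, an F-box gene best known from muscle atrophy, was low throughout, at 1.17, 0.569 and 0.468 CPM in WT (10 to 32 counts) and 3.54, 2.74 and 1.85 CPM in Il21r-/- (46 to 81 counts), with a log2 fold change of -1.89 (SE 0.26, adjusted p = 0.00425). *Fbxo32* passed on each of the 3 days and *Fbxw7* on day 10. The other 10 genes of the list did not pass by the quasi-likelihood test. At an unadjusted p under 0.05 the list had 5 of 12 genes, where 21.4% of all genes did. DESeq2 called 2 of the 12 as lower and 1 as higher in WT, where it called 8.64% of all genes, 2.89% as higher. With the day as a block, 3 of the other 10 (*Aurka*, *Skp2* and *Usp28*) passed as higher in WT, as did 9.33% of all genes.

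Of 62 MYC target genes tested, 1 passed over the 3 days as higher in WT, a share near the 1.40% of all genes. It was *Hspd1*, the mitochondrial chaperonin, at 192.7, 221.4 and 251.6 CPM in WT and 132.8, 168.7 and 161.9 CPM in Il21r-/- on days 7, 10 and 14 (log2 fold change 0.52, SE 0.10, edgeR quasi-likelihood adjusted p = 0.0214). The list as a whole had 54 of 62 genes above 0 and a median of 0.21, against -0.01 over all genes tested. DESeq2 called 8 of the 62 targets, all higher in WT, where it called 2.89% of all genes in that direction. With the day as a block, 25 of the 62 targets passed, all higher in WT, where 9.33% of all genes passed in that direction. In the same fit 1 of the 9 members passed, *Mxd4*, where 22.9% of all genes passed.

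**Figure D4:**
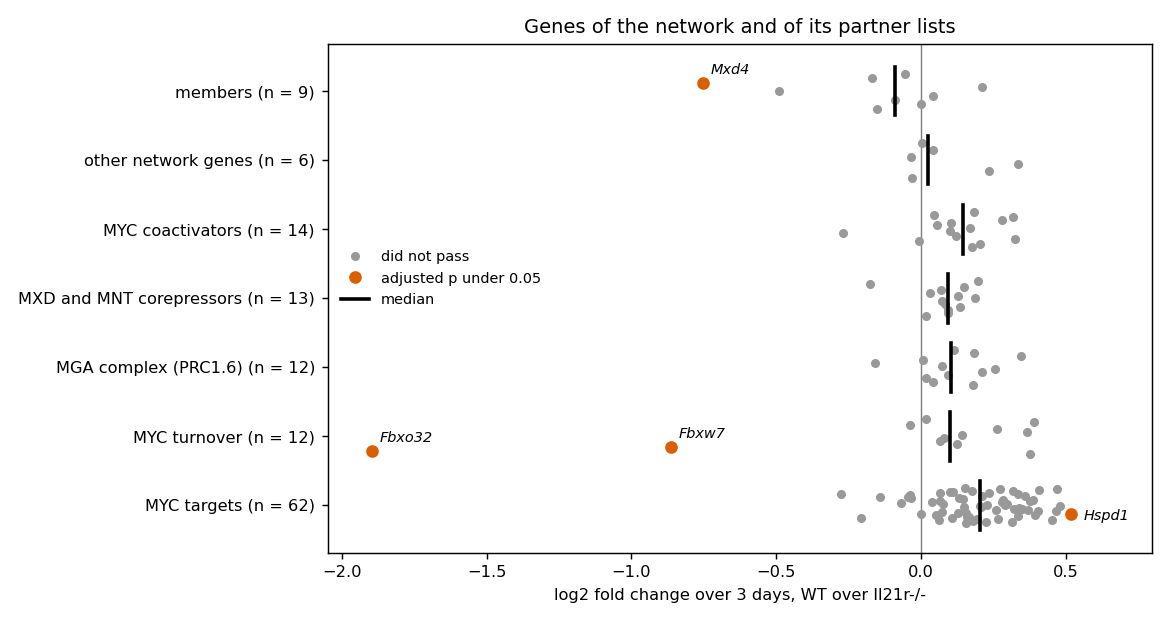
3-day log2 fold change of WT over Il21r-/- (x axis) for the members and 6 lists of related genes (y axis, with the number tested). Each point is 1 gene, colored where the adjusted p was under 0.05, and the black bar is the median of the list. *Mxd4*, *Fbxo32* and *Fbxw7* lie to the left and pass, *Hspd1* passes on the right, and the median of the MYC targets lies at 0.21.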

How the data were processed

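RNA was sequenced from 6 libraries of sorted GC B cells, 3 WT and 3 Il21r-/-, on days 7, 10 and 14. The deposited values are raw counts per gene: the authors aligned the reads to mm10 with Rsubread and counted them with featureCounts over its inbuilt RefSeq annotation, after CASAVA 1.8.2 base processing, with technical replicates pooled. Strand and multi-mapping settings are not given in the sources used here. The members and gene lists were chosen with earlier results of these data known. The lists of related genes and markers were put together from general knowledge.

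Of 27179 genes, 25275 took a symbol from RefSeq and 18 from GENCODE. Genes of the Y chromosome, *Xist* and immunoglobulin variable segments (337) were left out, and genes with a mean log2 CPM under 0 were dropped, leaving 11005. Counts were scaled by TMM in edgeR 4.0.16 (R 4.3.3). CPM are counts relative to the scaled library total, divided by the deposited gene length where given per kilobase. The 3-day difference came from the quasi-likelihood test with genotype and a linear day term (3 residual degrees of freedom), the difference on each day from the likelihood ratio test with dispersions of that model, since a day holds 1 library per genotype, and p-values were adjusted by Benjamini-Hochberg over all genes tested, with a threshold of 0.05. All 10 members, the genes called in each list (at most 5), *Mycl*, *Mlxip*, *Mlxipl*, *Tfap4*, *Zbtb17* and the 3 genes most like *Myc* and *Mxd4* are named. The biological coefficient of variation was 13.1%. The scripts were tested on simulated counts. DESeq2 1.42.0 and other filters, scalings, designs and left-out libraries were alternatives. Libraries of the same day deviated together (r of 0.640, 0.413 and 0.645 over 11005 genes on days 7, 10 and 14). The 3-day test reported used a linear day term and did not pair the libraries by day. A fit with the day as a block, which pairs them, was an alternative and called 2519 genes in place of 651.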

Additional observations from a re-analysis of the deposited data

How the results depend on the processing

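With 1 library per genotype and day, the error on a day is borrowed from the fit over days, and each left-out library moved the counts of all genes. Over 3 days the count of genes called was 651, against 991 with any count kept, 1193 by the likelihood ratio test and 136 to 2093 with a library left out, the lowest without the WT library of day 14 and the highest without the Il21r-/- library of day 10. Counts of members called ran from 0 to 1 there. With the replicate block, that is the pairing by day, 2519 genes passed over 3 days (1027 higher and 1492 lower in WT), 303 on day 7 in place of 118, 822 on day 10 in place of 341, 1055 on day 14 in place of 361, and 31 for the interaction in place of 0. The block changed no call of a member over 3 days (*Mxd4* -0.76, adjusted p = 9.17e-06). With a linear day term 722 genes passed on day 10. The day trend called 488 genes, against 869 with any count kept, 870 by DESeq2, 1186 by the likelihood ratio test and 0 to 2124 with a library left out. With a library left out, day 7 called 105 to 212 genes, day 10 272 to 405, day 14 339 to 698 and the interaction 0 to 11.

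On day 14 no member passed in the test reported, whereas 1 member, *Mxd4*, passed with the replicate block (adjusted p = 0.00124) and with a linear day term (adjusted p = 0.0490), and 0 to 1 members with a library left out (adjusted p = 0.0243 without the WT library of day 7, 0.0159 without the Il21r-/- library of day 10). On day 10 *Mxd4* passed in all 11 settings, with adjusted p from 1.51e-05 to 0.0412. The cause of these changes was not tested. A difference on a day could not be fitted without a library of that day, and the day trend has no fit with the day as a block.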
